A study of Mus musculus with 6 samples.

Results

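Macroautophagy encloses cytoplasm in a double membrane and delivers it to the lysosome, and 35 genes of the machinery that starts and builds that membrane were followed here in mouse esophageal organoids. The rule that defines them is a list of names and uses no measured value, although earlier results of these data were known when the list was made. All 35 were found among the 32285 genes listed in each of 6 single-cell libraries. They comprise 5 genes of the ULK kinase complex, 8 of the class III PI3-kinase complexes and their regulators, 10 of the ATG9 and ATG2 group at the growing membrane, 10 of the ATG12 and ATG8 conjugation systems and 2 that act when the autophagosome meets the lysosome.

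Esophageal epithelial cells of C57BL6 mice were sorted as integrin-b1 positive and DAPI negative, into Cyto-ID Low and Cyto-ID High cells. Cyto-ID is a dye that stains autophagic vesicles, integrin-b1 is a surface protein of basal cells, and DAPI marks dead cells. Both populations were grown under the same conditions in Matrigel for 15 days with EGF, Noggin, R-Spondin and the ROCK inhibitor Y27632, and the organoids, depleted of dead cells, were profiled by droplet 3′ RNA sequencing. Each group had 3 libraries, with the labels F2, M3 and F6 in both. The dye was read in the founder cells before culture, whereas RNA was read in their descendants, so the Cyto-ID comparison concerns what founders gave rise to and not the vesicle content of the cells sequenced. The labels do not say how many animals gave each library or whether cultures were separate, so p-values measure the spread between these libraries.

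Autophagosome formation is started by the kinases ULK1 and ULK2, held in a complex by ATG13, ATG101 and FIP200 (gene Rb1cc1), which respond to nutrient signals through mTORC1 and AMPK. The complex activates the lipid kinase VPS34 (Pik3c3), which works with VPS15 (Pik3r4), Beclin 1 (Becn1) and either ATG14 or UVRAG to make phosphatidylinositol 3-phosphate. WIPI proteins read that lipid, ATG9 and ATG2 supply membrane lipid, and a pair of ubiquitin-like conjugation systems attach ATG8 proteins such as LC3 to the membrane. Autophagy genes are known to be under transcriptional as well as post-translational control, and the TFEB family of transcription factors binds an E-box with the core CACGTG in many lysosomal and autophagy promoters.

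Promoter sequences of 28 of the 35 genes were matched in RefSeq (GRCm38.p6, 250 bases before to 50 bases after each start). The core CACGTG, which reads the same on both strands, was found in 6 of the 28 (21.4%), beside 2187 of 27025 genes with a promoter in the same table (8.09%). The longer TCACGTG, which contains the core and was searched on both strands, was found in 5 of the 28 (17.9%), beside 4.29% of all genes. These matches are letters in a window, not shown binding. The 6 windows are printed because they show where the core lies in members of 2 of the gene groups compared below, with the core in capitals, 20 bases on each side and the strand of the gene:
Atg7 (chr6:114670944-114670989, + strand): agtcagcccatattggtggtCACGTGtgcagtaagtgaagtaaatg
Atg5 (chr10:44268305-44268350, + strand): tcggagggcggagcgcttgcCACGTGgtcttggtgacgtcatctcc
Atg3 (chr16:45158715-45158783, + strand): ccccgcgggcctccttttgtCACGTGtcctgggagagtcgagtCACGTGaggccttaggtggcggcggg
Nrbf2 (chr10:67285464-67285509, - strand): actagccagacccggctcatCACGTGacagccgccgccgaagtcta
Atg14 (chr14:47568410-47568455, - strand): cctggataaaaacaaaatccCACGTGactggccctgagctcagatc
Rubcn (chr16:32868429-32868474, - strand): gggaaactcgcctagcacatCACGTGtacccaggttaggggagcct
Atg7, Atg5 and Atg3 encode conjugation proteins, and Nrbf2, Atg14 and Rubcn encode subunits or regulators of the PI3-kinase complexes. Atg3 held the core 2 times, 94 and 71 bases before its start, and Atg5 was the 1 gene of the 6 with the core but not the longer form. The starts behind the windows of Atg5, Nrbf2 and Atg3 lie within 44 bases of the outer start of the gene in the GENCODE M21 annotation. Those of Atg14 and Rubcn lie 2.21 and 9.40 kb inside the gene, at the start of another annotated transcript, and that of Atg7 lies 28 kb inside, with no annotated transcript start within 9 kb.

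Values below are CPM, UMIs (unique molecular identifiers, each standing for 1 captured RNA molecule) per 1000000 UMIs of a cell, averaged over the cells of a library. In all, 25154 of 26808 barcodes with at least 500 detected genes were kept. Depth differed between libraries: the median was 7789, 6080 and 2716 UMIs per cell in Cyto-ID Low F2, M3 and F6 and 10038, 2357 and 1940.5 in Cyto-ID High F2, M3 and F6. Each library therefore entered with equal weight, and each of the 35 genes rested on 476 (Atg4a) to 18000 (Vmp1) UMIs in all and on at least 16 in its thinnest library (Epg5 in 1 of the 6). Basal markers such as Krt5 and Krt14 summed to 12784 to 19306 CPM over 9 genes in Low and 10920 to 20904 CPM in High, and suprabasal markers such as Krt4 and Krt13 to 4944 to 6736 and 3899 to 8774 CPM over 9 genes. Among suprabasal markers, Krtdap was higher in High in all cells and in each layer, at 28.7 to 97.3 CPM in Low and 793 to 1504 CPM in High over all cells (log2 difference 4.26 ± 0.43, limma adjusted p = 0.00800). It was the 1 of the 9 called in all cells, where 5 of the 9 differences lay above 0 and 4 below, down to -1.10. In Krt13-high cells 2 of the 9 were called higher in High. The immune markers Ptprc, Tyrobp and Cd207, the fibroblast marker Col3a1 and the endothelial marker Cdh5 were at 0 in all 6 libraries, while the summed level of the 6 fibroblast markers was 0.272 to 0.966 CPM in Low and 0.435 to 4.95 CPM in High. The 4 endothelial markers summed to 5.86 to 9.58 CPM in Low and 6.88 to 11.1 CPM in High, mostly from Egfl7, and the 4 muscle markers to 5.72 to 13.3 and 4.87 to 16.9 CPM, mostly from Acta2. The summed level of 8 cycling markers was 97 to 292 CPM in Low and 314 to 384 CPM in High, without overlap. All 8 were higher in High, with log2 differences from 0.78 to 1.32 (median 0.92). Of the 8, 6 had an unadjusted limma p under 0.05, beside 8.07% of all genes, while 0 were called (lowest limma adjusted p = 0.318). The share of cells with at least 200 CPM of these markers overlapped, at 12.1%, 20.7% and 8.36% in Low F2, M3 and F6 and 19.3%, 19.5% and 23.7% in High. The cut is fixed in CPM, so fewer UMIs pass it in a shallow cell. These shares, and the values with such cells left out, are therefore not comparable between libraries of unlike depth. The part of cycling cells and of Krtdap-rich cells in the values below was not tested, apart from the values without cycling cells given below.

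The 35 genes together made up 999, 960 and 834 CPM in Cyto-ID Low F2, M3 and F6 and 913, 820 and 693 CPM in Cyto-ID High. Within each replicate label the High library was the lower of the pair, while the groups overlapped, since High F2 lay above Low F6. With TMM scaling, the trimmed-mean scaling used in the tests below, the M3 pair stood at 911 in Low and 913 in High, so on that scale the High library was the lower of the pair for F2 and F6 alone. The sum is dominated by its abundant members, and a 3′ count is not scaled by transcript length, so levels are compared within a gene and not ranked between genes. In CPM, High F6 held the lowest level of 18 of the 35 genes and High M3 that of 16, whereas Low F2 held the highest of 13. High M3 also held the highest level of 8 genes and High F6 that of 4. High F6 and High M3 were the 2 shallowest libraries, with the fewest detected genes per cell. With each cell thinned to 1000 UMIs, High F6 held the lowest level of 16 genes, High M3 that of 16 and Low F2 the highest of 14. High M3 then held the highest of 7 and High F6 of 3. Such counts were not made over all genes. With TMM scaling of the unthinned values, High F6 held the lowest of 15, High M3 the lowest of 13 and the highest of 10, and Low F2 the highest of 11.

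**Figure D1:**
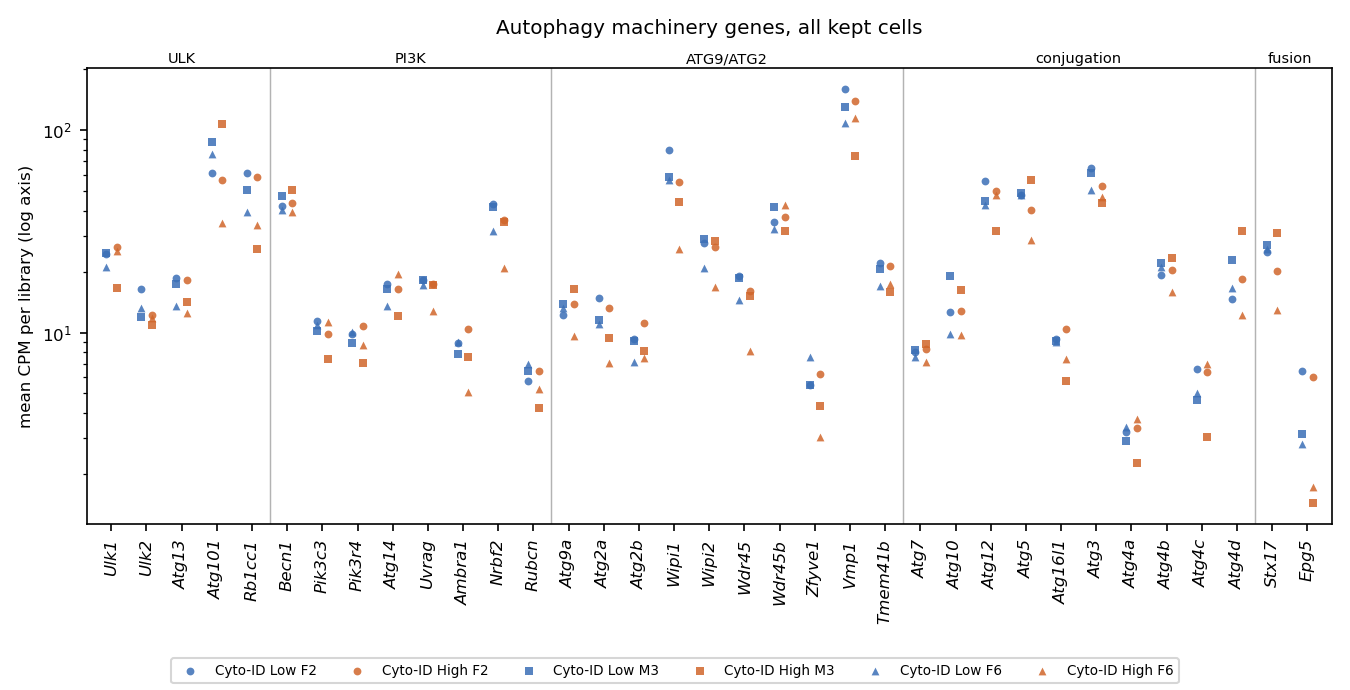
Mean CPM (log axis) of each of the 35 genes in all kept cells, 1 point per library, with Cyto-ID Low in blue and High in orange and the symbol giving the replicate label. Points of both colours interleave for most genes, Wipi1 is the gene whose 3 High points all lie below its 3 Low points, and Atg101 spreads widely among the High libraries.

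In the ULK complex the catalytic subunits are Ulk1 and Ulk2. Ulk1 stood at 24.5, 24.8 and 21.1 CPM in Low F2, M3 and F6 and at 26.5, 16.5 and 25.3 CPM in High. The groups overlapped, with High M3 the lowest library. Ulk2 ranged from 10.9 to 16.4 CPM and Atg13, the subunit that links the kinase to nutrient sensing by mTORC1, from 12.5 to 18.6 CPM over the 6 libraries. Atg101, which stabilises ATG13, was the most variable gene of the complex, at 61.6, 87.4 and 76.2 CPM in Low and 56.7, 107 and 34.8 CPM in High. The highest and the lowest library of Atg101 were both High libraries, and they differed 3.08-fold. Rb1cc1, the scaffold FIP200, stood at 61.7, 50.7 and 39.5 CPM in Low and 58.8, 25.9 and 34.1 CPM in High, with the 2 lowest values in High libraries and overlap through High F2.

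In the PI3-kinase group Becn1, the scaffold shared by the ATG14 and UVRAG forms, varied little. Becn1 stood at 42.1, 47.2 and 40.2 CPM in Low and 43.7, 50.7 and 39.2 CPM in High, a spread of 1.29-fold over the 6 libraries. Its 2 groups followed each other label by label in CPM, M3 highest and F6 lowest in both. Nrbf2, which binds the ATG14 form, stood at 43.3, 41.8 and 31.7 CPM in Low and 35.8, 35.1 and 20.7 CPM in High. Each High value of Nrbf2 was below the Low value of the same label, but Low F6 lay below High F2 and M3. The lipid kinase Pik3c3 ranged from 7.39 to 11.3 CPM and its regulatory partner Pik3r4 from 7.04 to 10.8 CPM. Atg14 and Uvrag, whose products define the 2 alternative complexes, ranged from 12.04 to 19.5 and from 12.7 to 18.2 CPM. Ambra1, a Beclin 1 partner, ranged from 5.09 to 10.4 CPM, and Rubcn, a negative regulator of the UVRAG form, from 4.23 to 6.99 CPM.

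Among the genes of the growing membrane, Vmp1, an endoplasmic reticulum lipid scramblase, stood at 160, 129 and 109 CPM in Low and 140, 74.6 and 114 CPM in High. High M3 was set apart below the other 5 libraries. An exon of Vmp1 overlaps the microRNA gene Mir21a on the same strand in the GENCODE M21 annotation, so UMIs there may belong to either. Wipi1, a reader of phosphatidylinositol 3-phosphate, stood at 79.4, 58.6 and 56.6 CPM in Low and at 55.4, 44.1 and 25.8 CPM in High. The 3 High libraries all lay below the 3 Low libraries, by a narrow margin between High F2 and Low F6. Tmem41b, the other scramblase of the group, ranged from 15.9 to 22.2 CPM, and Atg9a, a scramblase of the vesicles that seed the membrane, from 9.59 to 16.4 CPM. The lipid transfer genes Atg2a and Atg2b ranged from 7.10 to 14.8 and from 7.19 to 11.2 CPM. Of the remaining WIPI genes, Wipi2 ranged from 16.8 to 28.9, Wdr45 from 8.14 to 19.0 and Wdr45b from 31.7 to 42.5 CPM. An exon of Wdr45 overlaps the protein-coding gene Gm45208 on the same strand. Zfyve1, whose product DFCP1 marks the site where the membrane forms, ranged from 3.03 to 7.57 CPM.

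In the conjugation systems, Atg3, the E2-like enzyme that passes ATG8 proteins to lipid, stood at 65.0, 61.3 and 50.6 CPM in Low and 53.0, 43.7 and 46.4 CPM in High. Only High F2 lay within the range of the Low libraries of Atg3. Atg4d, 1 of 4 proteases that process ATG8 proteins, stood at 14.7, 22.9 and 16.7 CPM in Low and 18.4, 31.6 and 12.2 CPM in High. As with Atg101, the highest and the lowest library of Atg4d were High M3 and High F6. The ubiquitin-like Atg12 ranged from 31.7 to 55.8 CPM and its acceptor Atg5 from 28.6 to 56.9 CPM. Atg16l1, which brings the ATG12-ATG5 conjugate to the membrane, ranged from 5.74 to 10.5 CPM. The E1-like Atg7 ranged from 7.12 to 8.81 CPM, and Atg10, the E2-like enzyme for ATG12, from 9.68 to 19.0 CPM. The other proteases ranged from 2.27 to 3.72 (Atg4a), 15.9 to 23.3 (Atg4b) and 3.06 to 7.0 CPM (Atg4c).

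Of the 2 genes that act at the lysosome, Stx17, the autophagosomal SNARE, stood at 24.9, 27.1 and 25.8 CPM in Low and 20.1, 30.9 and 12.9 CPM in High. The Low libraries lay close together and the High libraries on both sides of them. Epg5, a tether between autophagosome and lysosome, was low throughout, at 6.46, 3.17 and 2.81 CPM in Low and 6.05, 1.43 and 1.72 CPM in High. Its 2 highest values came from the 2 F2 libraries, which were the deepest.

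The layers of the epithelium were compared next. Krt13 is a keratin that esophageal cells make as they leave the basal layer, and cells were split at a deposited Krt13 value of 3, which equals 1909 CPM of Krt13. This left 15202 cells below 3 and 9952 cells at 3 or more, and the share at 3 or more was 43.6% ± 1.65 in Low and 35.7% ± 12.8 in High (SD, n = 3 each). The 2 shares differed by -7.94 percentage points, which the spread did not separate (two-sided exact permutation test, p = 0.4, where 0.1 is the smallest p that 3 against 3 allows). Across the split 7 of 9 basal markers fell and 9 of 9 suprabasal markers rose, of which Krt13 itself had to rise by the way the cells were split. The other 2 basal markers, Krt5 and Krt14, rose with TMM scaling, a scaling described below. Their log2 differences per library were 0.02 to 0.63 and 0.07 to 0.58. As plain CPM 0 of the 9 basal markers were called higher. In the cells at 3 or more 8 of 8 cycling markers were lower with TMM scaling. These cells also had more UMIs than the others in 6 of 6 libraries and held fewer cycling cells by the fixed cut. Their mean mitochondrial share was lower in 6 of 6 libraries, for example 1.72% against 2.70% in Low F2, and 4 of 6 stress genes were higher in them with TMM scaling and 3 as plain CPM (Hspa1a, Hspa1b and Egr1), where another 2 were lower. Egfl7 and Acta2 were lower in them under both scalings, by -0.95 ± 0.14 and -1.72 ± 0.20 with TMM scaling. The part of the mitochondrial share, the stress genes, Egfl7 and Acta2 in the values of the 35 genes was not tested, while cycling cells were left out and depth was thinned in alternatives given below. The mean of each layer in each library gave 12 profiles, compared with the library as a block by limma with Benjamini-Hochberg adjustment over all genes.

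For many genes of the machinery, though not all, the sign of the layer difference depended on what the level was measured against, a shift shared with genes at large. With TMM scaling, which sets the bulk of genes equal between profiles, 15 of the 35 genes (42.9%) passed an adjusted p of 0.05, beside 59.8% of the 12138 genes tested. Of these, 13 were higher and 2 lower in Krt13-high cells, beside 31.3% and 28.5% of all genes, and the median log2 difference was 0.22 for the 35 against -0.0015 for all genes. As plain CPM, a share of all UMIs of the cell, 3 were higher and 18 lower, beside 15% and 57.3% of all genes, and the median was -0.20. The change of scale moved the median of all genes by -0.37. With TMM scaling and without cycling cells 13 were again higher and 2 lower, with a median of 0.18. Over all genes 3624 were then higher and 3172 lower of 12038, with a median of -0.0027. On thinning to 1000 UMIs 10 were higher and 1 lower, with a median of 0.17. Over all genes 2672 were then higher and 2864 lower of 12096, with a median of -0.079. The share of the 35 that was called was below that of all genes with TMM scaling, so a layer difference was not particular to this machinery.

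**Figure D2:**
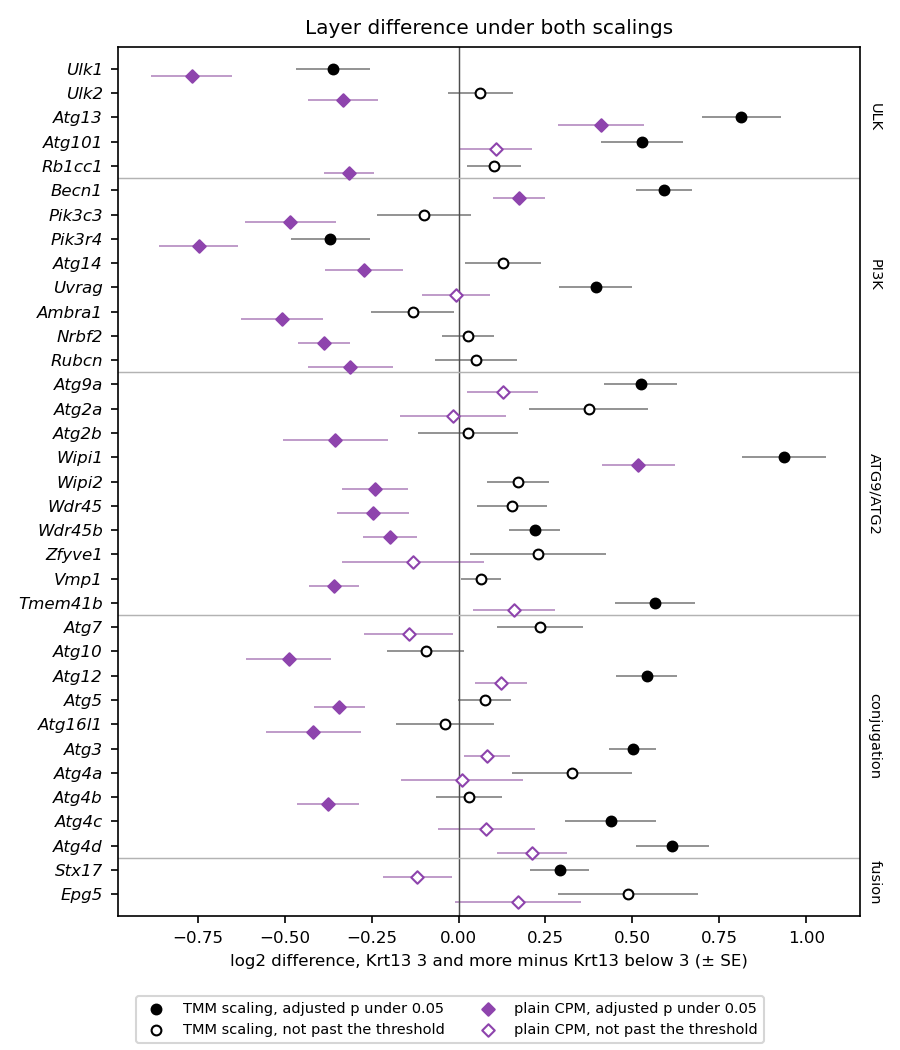
Log2 difference between Krt13-high and Krt13-low cells (± SE) of each of the 35 genes with TMM scaling (black circles) and as plain CPM (purple diamonds), filled where the adjusted p is under 0.05. The purple points lie to the left of the black ones throughout, and 5 genes, Wipi1, Atg13, Becn1, Ulk1 and Pik3r4, are filled on the same side of 0 under both.

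Under both scalings 5 genes were called in the same direction, Wipi1, Atg13 and Becn1 higher and Ulk1 and Pik3r4 lower in Krt13-high cells. The share of all genes that meet this rule was not computed. Of all genes, 15% were called higher as plain CPM and 28.5% lower with TMM scaling. The 5 are therefore not read as particular to the machinery. Pik3r4 and Wdr45b lie outside the 12 genes with the smallest p and are described in full for their calls under both scalings, which was decided after their values were seen.

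Wipi1 (chr11:109573331-109611967, GRCm38) had 64.6, 50.0 and 36.6 CPM in Krt13-low cells of Low F2, M3 and F6, and 99.9, 69.2 and 82.2 CPM in Krt13-high cells of the same libraries. In High F2, M3 and F6 it had 52.2, 38.2 and 24.6 CPM in Krt13-low and 63.1, 49.8 and 29.1 CPM in Krt13-high cells. It was higher in Krt13-high cells of 6 of 6 libraries, most in Low F6 and least in High F6. The log2 difference was 0.94 ± 0.12 (SE, n = 6 libraries, limma adjusted p = 2.81e-05) with TMM scaling and 0.52 ± 0.11 (limma adjusted p = 0.000634) as plain CPM.

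Atg13 (chr2:91674618-91710576) had 17.2, 16.1 and 11.3 CPM in Krt13-low and 20.5, 18.8 and 16.3 CPM in Krt13-high cells of the Low libraries. In the High libraries it had 17.2, 13.2 and 9.32 CPM and then 20.5, 15.2 and 21.0 CPM. It was higher in Krt13-high cells of 6 of 6 libraries, most in High F6. The log2 difference was 0.81 ± 0.11 (limma adjusted p = 5.28e-05) with TMM scaling and 0.41 ± 0.12 (limma adjusted p = 0.00878) as plain CPM.

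Becn1 (chr11:101285952-101302286) had 37.95, 42.4 and 40.1 CPM in Krt13-low and 47.9, 53.0 and 40.3 CPM in Krt13-high cells of the Low libraries, and 42.0, 50.3 and 37.8 CPM against 48.1, 51.1 and 42.8 CPM in the High libraries. All 6 libraries were higher in Krt13-high cells, Low F6 and High M3 by little. The log2 difference was 0.59 ± 0.08 (limma adjusted p = 3.93e-05) with TMM scaling and 0.17 ± 0.07 as plain CPM, where the call was at the threshold (limma adjusted p = 0.0499). An exon of Becn1 overlaps Cntd1 on the opposite strand, and the sources used here do not say whether counting used the strand.

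Ulk1 (chr5:110784488-110810097) had 31.3, 30.6 and 29.0 CPM in Krt13-low and 15.1, 17.7 and 11.04 CPM in Krt13-high cells of the Low libraries. In the High libraries it had 29.5, 18.9 and 27.6 CPM and then 19.2, 14.1 and 19.0 CPM. The kinase was lower in Krt13-high cells of 6 of 6 libraries, and in the 3 Low libraries no Krt13-high value reached 18 CPM while no Krt13-low value was under 28 CPM. The log2 difference was -0.36 ± 0.11 (limma adjusted p = 0.0111) with TMM scaling and -0.77 ± 0.12 (limma adjusted p = 5.66e-05) as plain CPM. Its binding partner Atg13 moved the other way, while its paralog Ulk2 had -0.33 ± 0.10 as plain CPM (limma adjusted p = 0.00916) and 0.06 ± 0.09 with TMM scaling (limma adjusted p = 0.579).

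Pik3r4 (chr9:105642978-105687657) had 12.3, 10.5 and 12.8 CPM in Krt13-low and 6.49, 6.88 and 6.58 CPM in Krt13-high cells of the Low libraries. In the High libraries it had 11.9, 9.27 and 10.0 CPM and then 7.88, 4.85 and 4.94 CPM. Its highest value in Krt13-high cells was below its lowest in Krt13-low cells. The log2 difference was -0.37 ± 0.11 (limma adjusted p = 0.0130) with TMM scaling and -0.75 ± 0.11 (limma adjusted p = 5.43e-05) as plain CPM. With TMM scaling the call was lost when cells needed 1000 genes (limma adjusted p = 0.0515) and when each cell was thinned to 1000 UMIs (limma adjusted p = 0.0820).

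**Figure D3:**
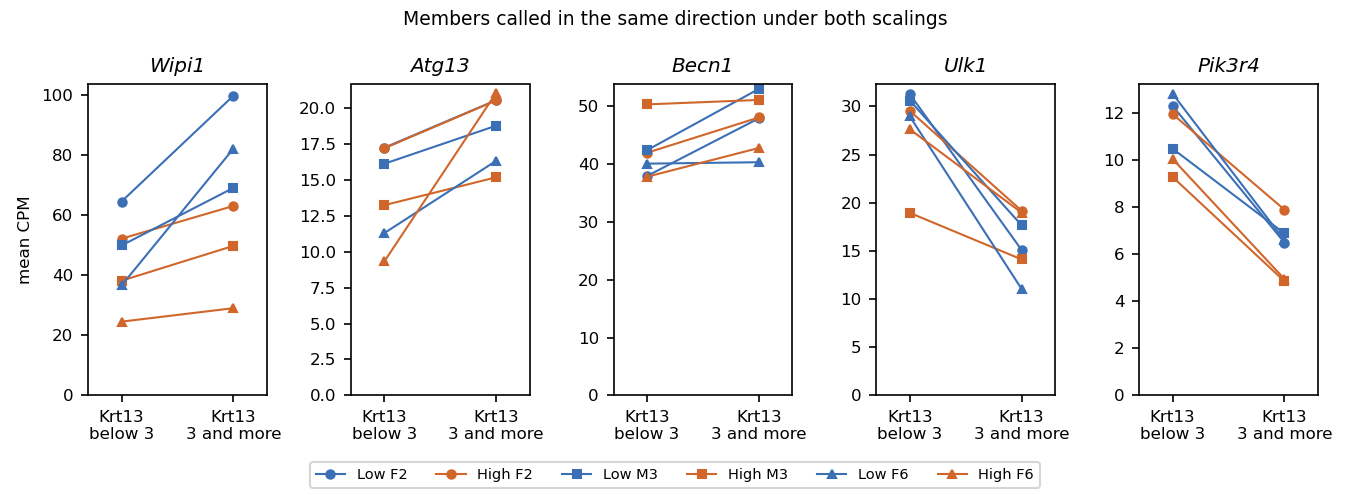
Mean CPM of the 5 genes called in the same direction under both scalings, in Krt13-low and Krt13-high cells, with a line for each library (blue Cyto-ID Low, orange Cyto-ID High) and axes that start at 0. All 6 lines rise for Wipi1, Atg13 and Becn1 and all 6 fall for Ulk1 and Pik3r4.

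The other 10 genes called with TMM scaling were not called in that direction as plain CPM, so a rise was called only relative to the bulk of genes. What parts them from the 5 above is a threshold on the adjusted p. Among conjugation genes, Atg3 had 64.9, 61.6 and 47.5 CPM in Krt13-low and 65.3, 61.0 and 54.7 CPM in Krt13-high cells of the Low libraries, and 52.4, 41.2 and 45.7 against 54.4, 46.2 and 48.4 CPM in the High libraries. In CPM the layers of Atg3 were therefore nearly level, and against the bulk of genes Atg3 was higher by 0.50 ± 0.07 (limma adjusted p = 4.09e-05). Atg12 had 50.7, 42.4 and 40.95 against 62.9, 46.9 and 44.7 CPM in Low and 49.5, 29.3 and 48.4 against 51.5, 34.1 and 45.0 CPM in High, higher in Krt13-high cells of 5 of 6 libraries. Its log2 difference was 0.54 ± 0.09 with TMM scaling (limma adjusted p = 0.000172) and 0.12 ± 0.07 as plain CPM (limma adjusted p = 0.15). Atg4d had 13.2, 20.9 and 14.3 against 16.9, 25.3 and 19.7 CPM in Low and 17.9, 34.1 and 11.4 against 19.8, 29.2 and 14.3 CPM in High, lower in Krt13-high cells of High M3 alone. It differed by 0.61 ± 0.10 (limma adjusted p = 0.000260) and, as plain CPM, by 0.21 ± 0.10 (limma adjusted p = 0.0739). An exon of Atg4d overlaps Kri1 on the opposite strand.

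In the ULK complex Atg101 had 57.3, 87.6 and 60.2 against 67.5, 87.2 and 96.8 CPM in Low and 55.0, 114 and 36.2 against 60.9, 101 and 31.0 CPM in High. Its libraries did not share 1 direction in CPM, and its log2 difference was 0.53 ± 0.12 with TMM scaling (limma adjusted p = 0.00205) and 0.11 ± 0.10 as plain CPM (limma adjusted p = 0.357). In the membrane group, Atg9a had 11.1, 14.2 and 11.9 against 13.6, 13.5 and 15.1 CPM in Low and 13.6, 16.8 and 9.11 against 14.5, 15.9 and 10.9 CPM in High. Atg9a was lower in Krt13-high cells of the 2 M3 libraries and higher in the other 4, and differed by 0.52 ± 0.10 with TMM scaling (limma adjusted p = 0.000873) and by 0.13 ± 0.10 as plain CPM (limma adjusted p = 0.274). An exon of Atg9a overlaps Ankzf1 on the opposite strand and Gm29253 on its own strand. Tmem41b had 22.9, 20.6 and 13.2 against 21.2, 20.6 and 21.8 CPM in Low and 20.9, 17.0 and 15.6 against 22.7, 14.8 and 21.9 CPM in High, with the clearest rise in the 2 F6 libraries. It differed by 0.56 ± 0.12 with TMM scaling (limma adjusted p = 0.00105) and by 0.16 ± 0.12 as plain CPM (limma adjusted p = 0.240).

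Uvrag had 17.2, 19.2 and 16.8 against 19.4, 17.0 and 17.9 CPM in Low and 16.6, 18.7 and 13.0 against 19.5, 15.7 and 12 CPM in High. Its layers were level as plain CPM, at -0.0078 ± 0.10 (limma adjusted p = 0.947), and differed by 0.39 ± 0.11 with TMM scaling (limma adjusted p = 0.00594), a call lost on thinning (limma adjusted p = 0.470) and with 1000 genes per cell (limma adjusted p = 0.336). Stx17 had 28.8, 26.7 and 27.2 against 19.5, 27.6 and 24.0 CPM in Low and 20.9, 30.6 and 12.5 against 18.1, 31.2 and 13.8 CPM in High, lower in Krt13-high cells of 3 libraries and higher in 3. Its log2 difference was 0.29 ± 0.09 with TMM scaling (limma adjusted p = 0.0103) and -0.12 ± 0.10 as plain CPM (limma adjusted p = 0.293). The TMM call of Stx17 was lost without Low M3 (limma adjusted p = 0.0589), without High M3 (limma adjusted p = 0.0521) and on thinning (limma adjusted p = 0.285). Atg4c differed by 0.44 ± 0.13 with TMM scaling (limma adjusted p = 0.0118), a call lost without High F2 (limma adjusted p = 0.0580), with a Krt13 threshold of 2 (limma adjusted p = 0.154) and on thinning (limma adjusted p = 0.0604). Wdr45b was the 1 gene called in opposite directions, at 0.22 ± 0.07 with TMM scaling (limma adjusted p = 0.0194) and -0.20 ± 0.08 as plain CPM (limma adjusted p = 0.0344). It had 38.04, 43.5 and 35.6 against 31.4, 39.4 and 28.2 CPM in Low and 39.6, 32.1 and 43.0 against 30.8, 31.3 and 41.3 CPM in High, lower in Krt13-high cells of all 6 libraries in CPM. The TMM call of Wdr45b was lost with 1000 genes per cell (limma adjusted p = 0.0639), on thinning (limma adjusted p = 0.576), with a Krt13 threshold of 4 (limma adjusted p = 0.0566), without Low M3 (limma adjusted p = 0.0663) and without High M3 (limma adjusted p = 0.0736).

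The 20 genes not called with TMM scaling had log2 differences that missed the threshold in either direction. Vmp1 was among them at 0.06 ± 0.06 (limma adjusted p = 0.343), while as plain CPM it was lower by -0.36 ± 0.07 (limma adjusted p = 0.000503), with 186, 140 and 122 against 124, 116 and 91.5 CPM in Low and 149, 86.6 and 116 against 118, 62.8 and 109 CPM in High. Thus Vmp1 took a smaller share of UMIs in Krt13-high cells of all 6 libraries and followed the bulk of genes. The same held for Nrbf2, at 0.03 ± 0.08 with TMM scaling (limma adjusted p = 0.764) and -0.39 ± 0.07 as plain CPM (limma adjusted p = 0.000405), and for Rb1cc1, at 0.10 ± 0.08 (limma adjusted p = 0.284) and -0.32 ± 0.07 (limma adjusted p = 0.00144). Epg5 missed the threshold at 0.49 ± 0.20 with TMM scaling (limma adjusted p = 0.0535) on few UMIs. By complex, TMM scaling called 2 higher and 1 lower of 5 in the ULK complex, 2 and 1 of 8 in the PI3-kinase group, 4 and 0 of 10 at the membrane, 4 and 0 of 10 in conjugation and 1 and 0 of 2 at fusion. As plain CPM the same counts were 1 and 3, 1 and 6, 1 and 5, 0 and 4, and 0 and 0.

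The split at 3 was opened into 6 bins of the Krt13 value, described without a test. The bins are given in plain CPM, so a change shared with the bulk of genes is not taken out. Ulk1 fell from 30.5 ± 7.60 CPM in cells with no Krt13 UMI to 28.0, 24.4, 21.4, 14.2 and 11.8 ± 5.17 CPM in the highest bin (SD, n = 6 libraries). The decline of the Ulk1 mean ran through the whole range, and the highest bin lay below the lowest in 6 of 6 libraries. The highest bin also lay below the lowest in 6 of 6 libraries for Ulk2, Rb1cc1, Vmp1, Pik3c3, Ambra1, Atg10, Atg5, Atg16l1 and Atg4b. None of these was called between layers with TMM scaling. It lay below in 6 of 6 libraries for Wdr45b too, which was called higher with TMM scaling. A fall in all libraries was thus common among the genes of the machinery in plain CPM. Bins were made for these genes alone, so no share over all genes is given. With TMM scaling the layer difference of Ulk1 ran from -0.87 to -0.019 over the libraries. Wipi1 was level in the 3 lowest bins at 45.2, 45.6 and 43.7 CPM and then stood at 55.6, 68.4 and 73.2 CPM. Its highest bin lay above its lowest in 5 of 6 libraries. Becn1 went from 39.2 ± 4.25 to 50.5 ± 7.58 CPM, higher in 6 of 6 libraries. Atg13 had 15.7 CPM in cells with no Krt13 UMI, 12.1 in the next bin, 20.8 in the bin from 4 to 5 and 18.7 CPM in the highest, which was above the lowest in 4 of 6 libraries. Pik3r4 went from 12.3 CPM to 5.63 in the bin from 4 to 5 and 6.74 ± 3.65 CPM in the highest bin, below its lowest in 5 of 6 libraries.

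**Figure D4:**
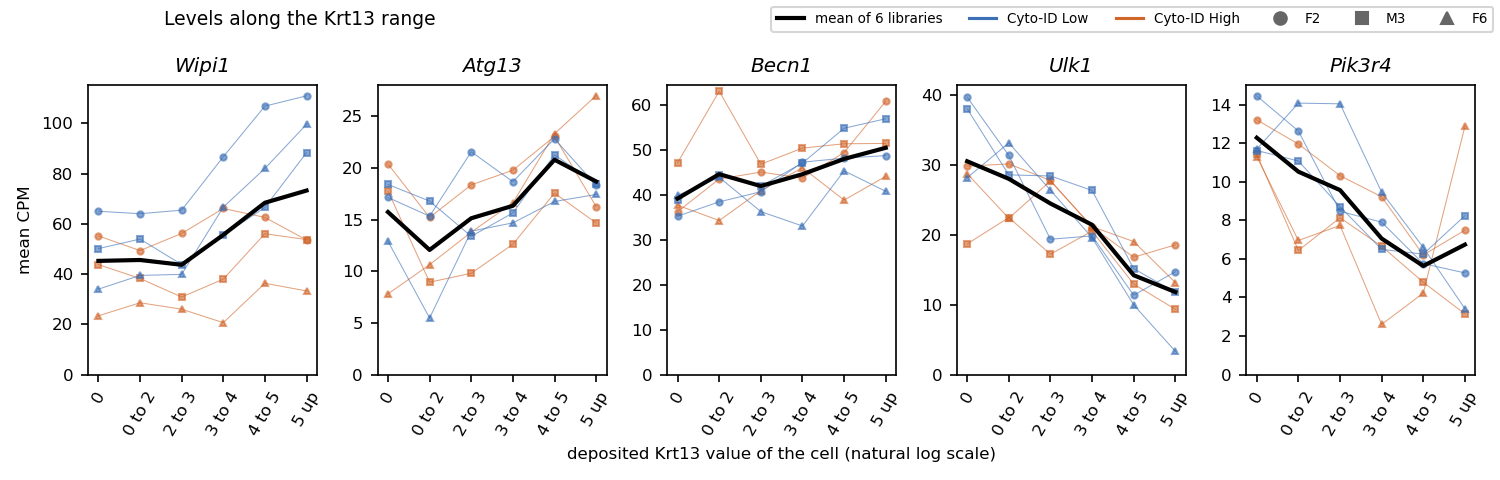
Mean CPM of the same 5 genes in cells binned by their deposited Krt13 value, with thin lines for the 6 libraries (blue Cyto-ID Low, orange Cyto-ID High) and a thick black line for their mean. Ulk1 falls from 30.5 to 11.8 CPM over the range, while Wipi1 stays near 45 CPM up to a Krt13 value of 3 and reaches 73.2 CPM in the last bin.

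The sort asks whether founders with many or few autophagic vesicles gave rise to cells that differ in the machinery itself. In all cells 0 of the 35 genes were called between Cyto-ID High and Low by limma with Benjamini-Hochberg adjustment (lowest adjusted p = 0.635), beside 0.172% of 11645 genes called. Of the 35, 0 had an unadjusted p under 0.05, beside 8.07% of all genes. The median log2 difference of the 35 was -0.079 with TMM scaling, with 12 of 35 above 0, beside -0.0023 and 49.6% above 0 for all genes. As plain CPM it was -0.18 with 5 of 35 above 0, beside -0.097 and 37.3% for all genes. Without High M3 it was -0.15 with 8 of 35 above 0, beside -0.033 and 46.6% for all genes. It was -0.060 without cycling cells, beside -0.011, and -0.020 with 16 of 35 above 0 on thinning, beside 0.018 and 52.1%. The 95% intervals, unadjusted for the number of genes and without the replicate block, had a median half-width of 0.49. That is not a limit of detection, since a call needed an adjusted p under 0.05. The largest difference of the 35, that of Wipi1 at -0.57, was not called either. In Krt13-low cells 0 of 35 were called beside 0.23% of all genes, and 0 had an unadjusted p under 0.05, beside 7.09%. In Krt13-high cells 0 of 35 were called beside 0.206% of all genes, and 1, Wipi1, had an unadjusted p under 0.05 (2.86%, beside 7.53% of all genes). With the replicate label as a block, 0 of 35 were again called in each of the 3 comparisons, while the numbers over all genes went from 20 to 68, from 27 to 81 and from 23 to 86.

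Wipi1 had the largest difference of the 35 in all cells, at -0.57 ± 0.27 (SE, limma adjusted p = 0.635), the values given above showing every High library under every Low library. The difference was -0.32 without High F6, -0.54 without cycling cells and -0.58 on thinning. It was the 1 gene of 35 (2.86%) whose High libraries all lay below in CPM, beside 8.13% of all genes tested, and 0 of 35 had all High libraries above, beside 4.48% of all genes. With TMM scaling Wipi1 and Atg3 lay below (2 of 35), beside 6.11% of all genes, and 0 of 35 above, beside 7.41%. In Krt13-high cells Wipi1 had 99.9, 69.2 and 82.2 CPM in Low and 63.1, 49.8 and 29.1 CPM in High. The groups did not overlap there either, and the difference was -0.83 ± 0.31 (limma adjusted p = 0.628, and 0.159 with the replicate block) and -0.54 without High F6. In Krt13-low cells, where the groups of Wipi1 overlapped, the difference was -0.26 ± 0.27 (limma adjusted p = 0.860).

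For the other genes named in each complex the intervals spanned 0. In all cells the log2 difference, High minus Low, was -0.21 with a 95% interval from -1.09 to 0.67 for Atg101 and -0.30 (-0.90 to 0.30) for Rb1cc1. In the PI3-kinase group it was 0.14 (-0.32 to 0.61) for Becn1 and -0.26 (-0.81 to 0.28) for Nrbf2. For Vmp1 it was -0.20 (-0.75 to 0.36) and for Atg3 -0.19 (-0.61 to 0.22). Atg4d stood at 0.21 (-0.56 to 0.99), Stx17 at -0.25 (-0.93 to 0.43) and Epg5 at -0.38 (-1.25 to 0.49). The widest of these intervals belong to Atg101, Atg4d and Epg5. For Ulk1 and Atg13 the differences were 0.04 and -0.03, with intervals from -0.43 to 0.50 and from -0.46 to 0.40. The signs of Ulk1, Atg13, Atg101, Becn1 and Atg4d changed when single libraries were left out.

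**Figure D5:**
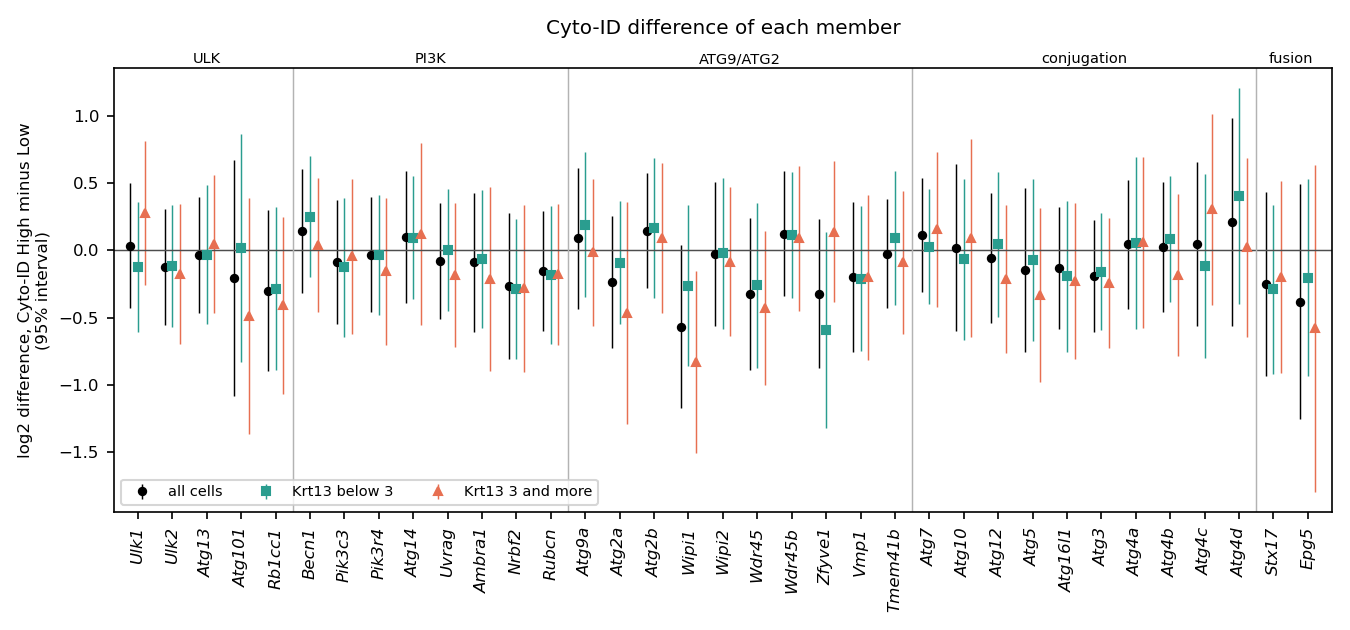
Log2 difference between Cyto-ID High and Low (points) with its 95% interval (lines) for each of the 35 genes in all cells, in Krt13-low and in Krt13-high cells, with TMM scaling. All intervals in all cells and in Krt13-low cells cross 0, and the interval of Wipi1 in Krt13-high cells, from -1.51 to -0.15, does not.

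Whether the layer difference itself depended on the founders was tested on the difference between layers within each library. Of the 35 genes 0 were called, beside 0.231% of all genes, and 2 had an unadjusted p under 0.05, beside 10.1% of all genes. With the replicate block 0 of the 35 were called, when the number over all genes went from 28 to 277. With the block 5 of the 35 had an unadjusted limma p under 0.05, beside 1872 of 12138 genes. The 2 without the block were Wipi1, whose layer difference was smaller in High by -0.58 ± 0.18 (limma adjusted p = 0.272, and 0.0663 with the block), and Atg101, at -0.52 ± 0.18 (limma adjusted p = 0.360, and 0.0894 with the block). The median of the 35 interactions was -0.082 with TMM scaling, with 9 of 35 above 0, beside 45.2% of all genes. With 1000 genes per cell it was 0.027, with 19 of 35 above 0, beside 44.5% of all genes. The median of the 35 was -0.11 without cycling cells, again with 0 called, and 0.035 as plain CPM, where the change of scale moved the median of all genes by 0.12. It moved it by -0.14 in the Cyto-ID comparison of Krt13-low cells. For Ulk1 the interaction was 0.39 ± 0.19 (limma adjusted p = 0.505), its layers lying closer together in High than in Low without passing the threshold.

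Other genes of the pathway were read from lists by role. Of 64 such genes, 35 were higher and 5 lower in Krt13-high cells with TMM scaling, and 19 and 21 as plain CPM. With TMM scaling 62.5% of the 64 were called, beside the 59.8% of all genes given above, of which 31.3% were higher. As plain CPM the shares over all genes were 15% higher and 57.3% lower. The ATG8 proteins are the substrates of the conjugation enzymes above, and under TMM scaling 4 of their 5 genes were higher. Gabarap differed by 0.98 ± 0.06 with TMM scaling (limma adjusted p = 4.79e-08), Gabarapl2 by 1.15 ± 0.09 (limma adjusted p = 3.58e-07) and Map1lc3b by 0.79 ± 0.12 (limma adjusted p = 9.62e-05), and all 3 were also called higher as plain CPM. Map1lc3a was higher by 0.56 ± 0.12 with TMM scaling alone (limma adjusted p = 0.00193). Gabarapl1 was lower under both, by -0.66 ± 0.07 with TMM scaling (limma adjusted p = 8.89e-06), with 67.3, 88.0 and 71.2 CPM in Krt13-low and 31.4, 33.5 and 33.7 CPM in Krt13-high cells of the Low libraries. Thus Ulk1 and Gabarapl1 were lower in the layer in which Wipi1, Becn1 and 3 other ATG8 genes were higher. These are means over a layer, and the genes were not related to each other cell by cell.

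Outside the ATG8 genes, the smallest p belonged to Mcl1, an inhibitor of Beclin 1 and of apoptosis, higher by 1.32 ± 0.08 in Krt13-high cells, to the lysosomal mTORC1 anchor Lamtor2 at 0.75 ± 0.05 and to the SNARE Vamp8, a partner of Stx17, at 0.79 ± 0.07. The cargo receptor Sqstm1 (p62) followed at 1.15 ± 0.10, the stress-induced mTORC1 inhibitor Sesn2 at 0.98 ± 0.09 and the AMPK subunit Prkab1 at 1.08 ± 0.10. These 6 were called higher under both scalings, with limma adjusted p of at most 1.61e-06 with TMM scaling. By list, 8 higher and 1 lower of 14 cargo receptors, 11 and 2 of 23 upstream regulators, 3 and 1 of 6 transcription factors, 2 and 0 of 3 Beclin inhibitors and 7 and 0 of 13 fusion partners were called with TMM scaling. As plain CPM the counts were 3 and 4, 5 and 11, 2 and 2, 2 and 0, and 4 and 3, so the split of each list between higher and lower moved with the scaling, except that of the Beclin inhibitors.

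Between Cyto-ID High and Low, 0 of the 63 pathway genes tested were called in all cells by limma, and 2 had an unadjusted p under 0.05, a smaller share than the 8.07% of all genes. These were the cargo receptor Optn, at 19.8, 14.3 and 17.4 CPM in Low and 12.6, 8.84 and 8.16 CPM in High (-0.66 ± 0.20, limma adjusted p = 0.505), and the transcription factor Foxo1, at 28.7, 29.1 and 30.1 CPM in Low and 24.9, 18.3 and 16.9 CPM in High (-0.44 ± 0.19, limma adjusted p = 0.615). For both, all High libraries lay below all Low libraries, as for 8.13% of all genes in CPM and 6.11% with TMM scaling. A tally of this over the 63 genes is not given. The next 6 by p, Tecpr1, Calcoco1, Bnip3, Plekhm1, Snap29 and Mcl1, also had differences below 0, with log2 differences from -0.40 to -0.51 and adjusted p from 0.639 to 0.692. In the interaction test the replicate block changed 1 ATG8 call, that of Map1lc3b, at -0.40 ± 0.20 (limma adjusted p = 0.535, and 0.0319 with the block).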

How the data were processed

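For each of the 6 libraries the authors deposited a matrix of barcodes by 32285 genes. Its unit is not stated in the labels. From the values, the deposited numbers are the natural log of 1 plus 10000 times a gene's UMIs over the cell's total, and 100% gave whole UMIs within 1e-06, so UMIs and CPM were recovered. The submitters' processing notes name Cell Ranger 6.0.0, Seurat 4 and mm10 (GRCm38), with no role for each. How reads of overlapping or near-identical genes were counted is not given in the sources used here, and exons of 10 of the 35 genes overlap another gene (3 on the same strand, 8 on the opposite). No doublets were removed, and library pairs shared 0 to 8 barcode sequences.

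Cells with at least 500 detected genes were kept. Per-cell CPM was averaged per library, or per library and Krt13 layer, scaled by TMM factors (own implementation, 30% of log ratios and 5% of levels trimmed) and tested as log2(CPM + 1) with limma 3.58.1 (R 4.3.3, mean-variance trend) over genes that reached 1 CPM in 3 or more profiles. Fold changes on this scale understate the change of low genes. The test used is the one fixed for log values, and no count model was run on the recovered UMIs. The fit was tested on simulated data. Over 8878 genes, same-numbered Low and High libraries deviated together for F2 (r = 0.764) and M3 (r = 0.579), and little for F6 (r = 0.149). Unlike labels gave r from -0.617 to 0.172, the highest between Low F2 and High F6, so the F6 libraries paired no better than that. The block on the replicate label is given where it changes a call. It was not run between layers, where the library was the block and libraries of the same label counted as separate units. How far shared labels narrow the SE and p there was not tested. No fit dropped a library except where stated.

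Members and lists were chosen with earlier results of these data known. Named in full are the 12 genes with the smallest p among those called, and per complex the genes with the highest CPM and the largest Cyto-ID difference. Pathway genes named are the ATG8 list and the 8 with the smallest p in the layer and all-cell comparisons. Alternatives were plain CPM, a pseudocount of 0.1, no filter, a mean of at least 5 CPM, summed UMIs, 1000 genes per cell, thinning to 1000 UMIs, Krt13 thresholds of 2 and 4, cycling cells (200 CPM or more of cycling markers) left out, each library left out, and the block. Python 3.11.15, numpy 2.4.6, pandas 2.3.3, scipy 1.17.1 and matplotlib 3.10.9 were used.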

Additional observations from a re-analysis of the deposited data

How the results depend on the processing

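The counts of 35 called between Cyto-ID groups stayed at 0 under each alternative that was run, the replicate block included. Over all genes the calls ranged from 0 to 68 in all cells, 2 to 81 in Krt13-low and 0 to 86 in Krt13-high cells and 0 to 277 for the interaction, in each case highest with the replicate block, and from 5536 to 8781 between layers. The layer result depended most on scaling. As plain CPM 3 of the 35 genes were higher and 18 lower, the median turned to -0.20, and 12 of 35 differences were above 0 instead of 29. Over all genes the share above 0 went from 49.8% to 24.7% and the median from -0.0015 to -0.37, so the turn was not particular to the 35. Among the 15 genes called with TMM scaling, Stx17 (-0.12), Uvrag (-0.0078) and Wdr45b (-0.20) turned negative. The number lower was 1 with 1000 genes per cell, 1 after thinning to 1000 UMIs, 4 with a Krt13 threshold of 4, where the median was 0.15, and 1 in libraries with a median of at least 3000 UMIs, an alternative chosen after seeing the data. Over all genes the numbers lower in these settings, in that order, were 3169 of 12139, 2864 of 12096, 3728 of 12090 and 3059 of 11675. The cause was not tested. Without 1 library at a time, 13 to 17 of the 35 genes were called (11 to 15 higher, 2 lower), the median was 0.17 to 0.24 and the difference in layer share -15.3 to -3.82 points. Over all genes the calls then ran from 6523 of 11998 (without Low F2) to 7090 of 12001 (without High F6). Calls of Atg13, Ulk1, Becn1 and Wipi1 kept their direction under every alternative run, and 10 genes, these 4 among them, kept theirs under all but plain CPM. How many of all genes kept their calls in this way was not counted. In the uncalled Cyto-ID differences, leaving out 1 library gave -0.71 to 0.12 for Atg101 (above 0 without High F6), -0.035 to 0.24 for Becn1 and -0.21 to 0.47 for Atg4d (both below 0 without High M3). It gave -0.10 to 0.16 for Ulk1 (below 0 without High F2, Low F6 or High F6) and -0.15 to 0.029 for Atg13 (above 0 without Low F2 or High F6). Ulk1 also turned to -0.066 as plain CPM and -0.050 with 1000 genes per cell, and Atg13 to 0.15 with 1000 genes per cell and 0.027 on thinning. Without 1 library no sign changed for 7 other genes, at -0.72 to -0.32 for Wipi1 (-0.99 to -0.54 in Krt13-high cells), -0.54 to -0.13 for Rb1cc1, -0.47 to -0.07 for Nrbf2, -0.32 to -0.03 for Vmp1, -0.28 to -0.15 for Atg3, -0.63 to -0.0009 for Stx17 and -0.80 to -0.10 for Epg5. Depth limits Epg5, Atg4a and Zfyve1, with at most 780 UMIs each in all libraries.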
